A study of Mus musculus with 12 samples.

Results

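The 3 RNA-seq libraries labelled NR, for neural rosettes, were compared with the 3 libraries of neural progenitor cells (NPCs), 6 of the 12 libraries of the study. All cells descended from mouse embryonic stem cells (ESCs) of the strain given as C57BL/6, with GFP knocked into the *Sox1* gene in the heterozygous state. The NR libraries are labelled as neuroepithelial cells of neural differentiation sorted for GFP. The NPC libraries, titled Baseline, are labelled as *Sox1*-negative glial progenitors and as not sorted, although the study's text speaks of sorted NPCs with and without *Sox1* induction. NPCs were cultured with bFGF and EGF on laminin, and the study's NPC lines with dCas9-VP64, a nuclease-dead Cas9 fused to a transcriptional activator, were clonal. Which lines gave the Baseline libraries is not given in the sources used here. The 3 NSC libraries, neuroepithelial cells after 7 days of neural induction with no sort, were used only to show where NR differed from them. The 3 libraries of the fourth group, NPC(+), in which *Sox1* was activated with dCas9-VP64, entered the model only for its estimate of the spread. By the study's general statement, replicates were made on different days and in different clonal lines. The spread of each gene was estimated over the cultures of all 4 groups, so p-values do not measure the spread of the NR cultures alone. By the labels the sort went together with the group, so that effects of sorting and of cell type cannot be told apart. In these bulk samples, fewer cells of a type and less RNA of a gene per cell cannot be told apart either.

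Neuroepithelial cells are the dividing, polarised cells of the early neural tube, and in culture they arrange around a lumen as rosettes. They arise from pluripotent cells, which shut down the pluripotency network, and pass from producing neurons to producing glia. Sox1 is among the first transcription factors to mark them, whereas glial progenitors in culture express astrocyte and oligodendrocyte lineage genes. Genes of the germline are silenced in somatic cells, largely through DNA methylation of CG-rich promoters and through repressors that bind E-box and E2F motifs there.

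The NR libraries held 16707006, 30291431 and 34594885 counts on genes, and the NPC libraries held 18351483, 7434718 and 4939268. Reads fell on 24067 to 26878 genes in the NR libraries and on 17607 to 20949 genes in the NPC libraries, of which replicates 2 and 3 were the shallowest. Levels are given as CPM, the counts of a gene scaled to a common library total, which do not account for gene length, so that a level is compared between libraries and not between genes. Where all 3 libraries of a group held at most 3 counts of a gene, the group was taken to be at the floor, and a fold is given as a bound against the mean CPM that 3 counts make in that group, 0.408 in NPC. On log2 CPM the NR libraries correlated with each other at r = 0.974 to 0.988 across genes and with the NPC libraries at 0.753 to 0.797. The biological coefficient of variation was 21.1% in NR and 8.17% in NPC. The model shared its estimate of the spread of a gene across groups, so p-values do not carry this difference.

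The NR libraries did not form a uniform group. Of the genes called higher in NR, 59.1% had their highest value in NR replicate 1 and 53.9% their lowest in NR replicate 2. The summed level of 4 Y-linked genes, *Ddx3y*, *Uty*, *Kdm5d* and *Eif2s3y*, chosen after values were seen, was 29.6, 1.35 and 20.5 CPM in the 3 NR libraries. It was 0.179, 0.140 and 0.209 CPM in the NPC libraries and 19.2, 1.83 and 15.4 CPM in the NSC libraries. All 4 were called higher in NR than in NPC, where they were at the floor, and 2 were without NPC replicate 1. NR replicate 2 and NSC replicate 2 both stood apart from their groups in Y-linked RNA. *Xist*, the X-inactivation RNA, also chosen after values were seen, lay at 18.8, 19.8 and 27.9 CPM in NR and at 166, 149 and 149 CPM in NPC, a log2 fold change of -2.80 ± 0.16 (SE). The part of these library differences in the results that follow was not tested, and each list was also counted with each NR library left out.

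Between NR and NPC, 3740 of 17003 genes tested were higher in NR and 1023 were lower at over 4-fold, 22.0% and 6.02% of the genes (edgeR's quasi-likelihood test, Benjamini-Hochberg adjusted p below 0.1, p below 0.05). Such genes are called higher or lower in what follows. At any fold, 7757 genes (45.6%) passed as higher and 5806 (34.1%) as lower at an adjusted p below 0.1. Of the genes called higher, 2143 (57.3%) were at the floor in NPC, whereas 67 of the genes called lower were at the floor in NR. The 3 NR values lay above the 3 NPC values in 7548 genes (44.4%) and below them in 5676 (33.4%). Of genes with 10 or more counts in each of the 6 libraries, which leaves out those near 0 in NPC, 570 were called higher and 534 lower. The median log2 fold change of all genes was 0.19. Every count of list members is read against these shares.

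*Sox1* RNA bears on the labels, since by label NR cells were sorted on its reporter. It lies on chr8:12395295-12400126 on the plus strand. Its level was 4.62, 20.001 and 19.2 CPM in NR replicates 1, 2 and 3 and 4.83, 6.00 and 5.43 CPM in the NPC libraries. NR replicates 2 and 3 were thus above all NPC libraries, while NR replicate 1 was at the NPC level. *Sox1* passed as higher in NR with a log2 fold change of 1.48 ± 0.40 (SE) (2.78-fold, adjusted p = 0.0043, edgeR's quasi-likelihood test), and without NR replicate 1 the value was 1.84. The unsorted NSC libraries held 48.6, 64.9 and 51.8 CPM, above every library labelled NR, and *Sox1* was lower in NR than in NSC by a log2 fold change of -1.89 (adjusted p = 5.4e-04). The *Sox1* RNA thus stood in tension with the label of a GFP-sorted population in NR replicate 1 and against NSC, though not against NPC in NR replicates 2 and 3. By label the sort was on GFP and not on *Sox1* RNA, so these values do not settle whether the label holds. Directions below refer to the libraries labelled NR.

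**Figure D1:**
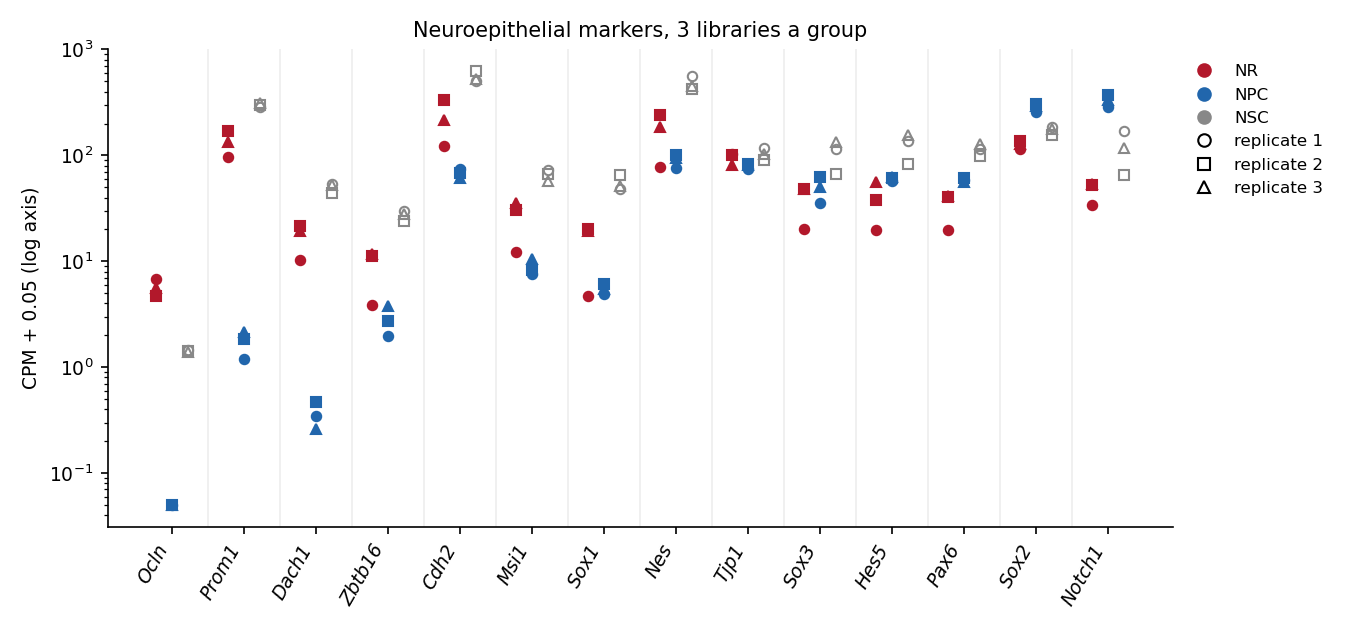
Level in CPM, on a log axis after adding 0.05, of 14 neuroepithelial markers in each library, with colour for the group and marker shape for the replicate (3 libraries a group). NR libraries sit far above NPC for *Prom1*, *Dach1* and *Ocln*, below NPC for *Sox2* and *Notch1*, and for most genes below NSC, with NR replicate 1 often the lowest NR library.

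Of the 14 neuroepithelial markers, all of which were tested, 3 were called higher in NR and 1 lower. Of all genes, 22.0% were called higher and 6.02% lower, so that the called markers stood near the shares of all genes. At any fold, 9 passed as higher and 4 as lower, where 45.6% and 34.1% of all genes did. The median log2 fold change of the markers was 1.19. The 3 called higher encode surface or nuclear proteins of the neuroepithelium. *Prom1*, which encodes the apical membrane protein prominin-1, was at 97.5, 172 and 135 CPM in NR and at 1.13, 1.81 and 2.09 CPM in NPC, 89.9-fold apart (log2 6.49 ± 0.29 (SE), adjusted p = 2.3e-10, edgeR's quasi-likelihood test). *Dach1*, a transcription factor of rosette-stage cells, was at 10.2, 21.5 and 19.4 CPM against 0.298, 0.419 and 0.209 CPM, a log2 fold change of 5.74 ± 0.39 (SE). *Ocln*, for the tight junction protein occludin, was at 6.71, 4.61 and 5.56 CPM with no count in any NPC library, at least 13.8-fold higher. In these 3 genes the NR and NPC values did not overlap.

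Smaller rises were seen for the adhesion protein gene *Cdh2* (log2 fold change 1.71), the RNA-binding protein gene *Msi1* (1.63) and the rosette marker *Zbtb16* (1.82). *Nes*, for the intermediate filament nestin, was at 76.9, 240.2 and 185 CPM in NR and 75.5, 101 and 93.9 CPM in NPC. Its log2 fold change was 0.90 ± 0.29 (SE) (adjusted p = 0.011), with NR replicate 1 inside the NPC range. The tight junction scaffold gene *Tjp1* passed with a log2 fold change of only 0.25 and overlapping values, and no longer passed without NR replicate 1 (0.15), NR replicate 2 (0.22), NPC replicate 1 (0.19) or NPC replicate 2 (0.23). *Sox3*, a close relative of *Sox1*, did not pass (log2 fold change -0.33 ± 0.32 (SE), adjusted p = 0.36).

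The markers that were lower in NR were well above the floor in NPC, as were *Nes* and *Cdh2*, which were higher in NR. *Notch1*, the receptor that keeps progenitors undifferentiated, was the one called lower, at 34.2, 52.7 and 53.8 CPM in NR and 289, 371 and 336 CPM in NPC (log2 fold change -2.81 ± 0.27 (SE)). Its target *Hes5* was at 19.8, 37.7 and 55.8 CPM against 57.0, 60.8 and 62.0 CPM, and passed at a log2 fold change of -0.65, though not without NR replicate 1 (-0.39) or NPC replicate 3 (-0.62). *Sox2*, which pluripotent and neural stem cells both express, was at 116, 135 and 128 CPM against 254, 308 and 291 CPM, with no overlap (-1.17 ± 0.10 (SE)). *Pax6*, a transcription factor of neuroepithelium and radial glia, was at 19.9, 40.3 and 41.0 CPM against 58.0, 60.5 and 55.7 CPM (-0.77). The summed level of the 14 markers was 648, 1248 and 1034 CPM in NR and 935, 1134 and 1054 CPM in NPC, so that the groups overlapped. It was 2397, 2107 and 2299 CPM in NSC, above every NR library.

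Of 12 other genes that the study's text names, 9 passed as higher in NR than in NPC and 2 as lower. *Nnat*, for the proteolipid neuronatin, was at 504, 1030.4 and 830.0 CPM against 8.23, 9.07 and 8.56 CPM, 92.0-fold higher. The kinase gene *Nuak2* was at 21.2, 45.7 and 35.6 CPM against 0.358, 0.140 and 0.626 CPM (6.60 on the log2 scale). The growth factor gene *Igf2* was at 52.7, 111 and 85.4 CPM against 0.358, 0.837 and 0.626 CPM (7.28). In these 3 genes every NR library lay far above every NPC library. *Fgf13* (4.07), *Neurl1a* (3.37) and *Trnp1* (1.33) also passed as higher. *Vim*, for the intermediate filament vimentin, passed as slightly lower (-0.33), with overlapping values, and no longer passed without NR replicate 1 (-0.22) or NPC replicate 1 (-0.31). *Areg*, for the growth factor amphiregulin, was at 0.123, 0.0645 and 0.140 CPM in NR and 0.477, 0 and 0 CPM in NPC and did not pass (-1.20, adjusted p = 0.22), with NPC counts in replicate 1 alone and a sign that turned without it (4.18).

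Glial progenitor genes were lower in NR. Of 16 markers tested, 12 were called lower and 2 higher, with a median log2 fold change of -3.91, where 6.02% of all genes were called lower. *Slc1a3*, for the glutamate transporter GLAST, was at 39.2, 47.4 and 40.3 CPM in NR against 2774, 2571 and 2468 CPM in NPC (61.5-fold lower). *Aldoc*, for the astrocyte aldolase, was at 6.65, 6.13 and 6.24 CPM against 639.8, 641 and 638 CPM (101-fold lower). *Bcan*, for the matrix proteoglycan brevican, was at 1.35, 2.19 and 1.66 CPM against 593, 616 and 641 CPM (344-fold lower). All 3 showed NPC levels far from any NR library. *Ptprz1* (-5.55), *Tnc* (-4.53) and the calcium-binding protein gene *S100b* (-6.54) were also called lower. The exceptions, named after their values were seen, were *Aldh1l1* (7.51, 6.03 and 3.82 CPM against 0.656, 0.698 and 0.626 CPM) and the water channel gene *Aqp4* (1.17, 1.13 and 0.843 CPM against 0.0597, 0 and 0 CPM), both called higher from very low levels. The summed level of the list was 840, 822 and 913 CPM in NR and 8247, 8109 and 7860 CPM in NPC.

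Oligodendrocyte lineage genes were called in both directions, while their summed level was far lower in NR. Of 9 members tested among 10, 3 were called lower and 3 higher, where 6.02% and 22.0% of all genes were. The summed level of the list was 58.7, 74.9 and 67.7 CPM in NR and 2758, 2881 and 2759 CPM in NPC. *Olig1*, a transcription factor of oligodendrocyte precursors, showed the largest fall of the comparison among the genes named by rule, at 2.77, 3.39 and 2.84 CPM in NR and 1743, 1794 and 1735 CPM in NPC (581-fold lower, log2 -9.18 ± 0.14 (SE), adjusted p = 2.9e-14, edgeR's quasi-likelihood test). Its neighbour and relative *Olig2* was at 4.0025, 16.7 and 8.91 CPM against 650.2, 728 and 673 CPM (-6.06), and *Sox8* at 3.76, 5.23 and 6.63 CPM against 353, 348 and 339 CPM (-6.02). The 3 called higher, named after their values were seen, were *Nkx2-2* (5.20, or 5.87 without NPC replicate 1), which also marks the ventral neural tube, *Mbp* (5.57) and *Cspg4*, which was at the floor in NPC and at least 9.49-fold higher.

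Neuronal genes were mostly higher in NR, with exceptions. Of 15 tested, 9 were called higher and 3 lower, where 22.0% and 6.02% of all genes were. Their median log2 fold change was 2.74. *Stmn2*, for a growth-cone protein of young neurons, was at 135, 112 and 146 CPM in NR against 0.418, 0.837 and 1.04 CPM in NPC (203-fold). *Tubb3*, for the neuronal tubulin known as Tuj1, was at 101, 143 and 167 CPM against 6.09, 4.60 and 5.43 CPM (24.9-fold). *Dcx*, for the migration protein doublecortin, was at 10.7, 15.0 and 25.3 CPM against 0.537, 0.977 and 0.626 CPM (25.3-fold). In each of them no NR value came near the NPC values. The proneural transcription factor genes did not move as one. *Neurog1* was at the floor in NPC and at least 21.9-fold higher in NR, and *Neurod4* was higher by 5.73 on the log2 scale. *Neurod1* passed as lower (-0.94). *Map2*, for a microtubule protein of dendrites, was at 26.0, 33.6 and 54.0 CPM against 454, 459 and 480.4 CPM, 12.2-fold lower. *Mapt* was called lower too.

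Genes that pattern the neural tube were called in both directions. Of 14 forebrain genes tested, 7 were called higher and 4 lower, where 22.0% and 6.02% of all genes were. *Otx2*, which acts in the anterior epiblast and the forebrain and midbrain, was at 50.6, 22.8 and 33.4 CPM in NR and 0.239, 0.140 and 0 CPM in NPC (7.64, or 8.61 without NPC replicate 1), and *Hesx1* was at least 13.0-fold higher. *Emx2*, a cortical transcription factor, was at 1.17, 1.48 and 1.43 CPM against 17.1, 17.3 and 20.2 CPM (-3.71), and *Otx1*, *Dlx1* and *Dlx2* were the others called lower. The forebrain median of 2.76 became 0.91 with genes at the floor set to their bounds. Of 14 midbrain and hindbrain genes, 9 were called higher and 1, *En1*, lower. The former included *Fgf8* (at least 19.3-fold), *Irx3* (2.54) and *En2* (2.53). Without NR replicate 3 the count called higher was 7 and the *En2* value 1.89. Of 15 dorsal and ventral genes tested, 10 were called higher and 1, *Zic1*, lower. The floor plate signal gene *Shh* was at 19.3, 72.9 and 21.2 CPM in NR, highest in replicate 2, and at 0.179, 0.140 and 0.209 CPM in NPC, at least 92.6-fold higher, or 49.6-fold without NR replicate 2. The ventral factors *Nkx2-9* (at least 44.6-fold, or 23.4-fold without NR replicate 2) and *Nkx6-1* (10.6-fold) were also called higher, whereas the Shh receptor gene *Ptch1* did not pass (0.31, adjusted p = 0.18), except without NR replicate 1 (0.48).

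Hox genes set position along the body axis. Of 29 tested among 39, 10 were called higher in NR and 6 lower, where 22.0% and 6.02% of all genes were. The genes called lower lay in the Hoxa and Hoxd clusters. *Hoxa5* was at 1.79, 2.58 and 2.02 CPM in NR against 49.5, 42.4 and 49.0 CPM in NPC (-4.44). *Hoxa10* was at 4.74, 0.484 and 3.23 CPM against 40.9, 35.0 and 36.7 CPM (-3.79), with NR replicate 2 far below the other NR libraries, and *Hoxd8* was called lower as well (-3.04). Among those called higher, *Hoxc8* was at 6.03, 7.42 and 7.17 CPM in NR, at least 16.9-fold higher, *Hoxc10* at least 3.93-fold and *Hoxb6* at least 2.97-fold. The summed Hox level was 82.3, 108 and 110 CPM in NR and 199, 182 and 187 CPM in NPC.

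Pluripotency genes were higher in NR almost without exception. Of 14 genes of the naive state, in which cells resemble the inner cell mass, 13 were called higher, where 22.0% of all genes were called higher. *Zfp42*, also called Rex1, was at 511, 293 and 347 CPM in NR and 1.01, 0.837 and 0.626 CPM in NPC, 423-fold higher (log2 8.73 ± 0.45 (SE), adjusted p = 9.5e-10, edgeR's quasi-likelihood test). *Klf2*, a transcription factor of naive cells, was at 491, 336 and 405 CPM against 7.82, 7.39 and 7.72 CPM (53.5-fold). *Nr0b1* was at 124, 61.7 and 83.7 CPM against 0.239, 0 and 0.209 CPM. Each of them was highest in NR replicate 1 and lowest in NR replicate 2, as were most others: 12 of the 13 called members were highest in replicate 1 and all 13 lowest in replicate 2. *Dppa2* (at least 270.5-fold), *Dppa4* (8.84) and *Prdm14* (at least 55.8-fold) were called higher too. The exception, named after its value was seen, was *Klf4*, at 47.7, 18.6 and 39.8 CPM in NR and 28.0, 33.5 and 39.0 CPM in NPC, which overlapped (log2 fold change 0.09 ± 0.27 (SE), adjusted p = 0.79), and its sign turned without NR replicate 1 (-0.22).

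All 16 genes of the core and primed pluripotency list were called higher, with a median log2 fold change of 7.70. *Dppa5a*, for an RNA-binding protein of pluripotent cells, was at 1612, 813 and 1272 CPM in NR against 3.22, 3.63 and 3.55 CPM in NPC (361-fold). *Dnmt3b*, for the de novo DNA methyltransferase of the epiblast, was at 885, 325 and 613 CPM against 9.19, 8.79 and 9.60 CPM (66.2-fold). *Utf1* was at 389, 203 and 352 CPM against 1.19, 0.419 and 0.209 CPM (383-fold). Folds against an NPC level so near 0 rest on few counts: without NPC replicate 1 the log2 fold change of *Utf1* was 9.83, that of *Dppa4* 10.46 and that of *Pou5f1* 9.17. The Nodal antagonist genes *Lefty1* (9.64) and *Lefty2* (9.20) and the Nodal co-receptor gene *Tdgf1* (at least 327-fold) were called higher. *Pou5f1* and *Nanog*, the central factors of the network and named here after their values were seen, were at 133, 74.8 and 95.5 CPM and 180.5, 113 and 141 CPM in the 3 NR libraries. In NPC they were at 0.358, 0.279 and 0 CPM and 0.716, 0.140 and 1.25 CPM, and the log2 fold changes were 8.48 ± 0.53 (SE) and 7.76 ± 0.44 (SE).

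These genes were also higher in NR than in the unsorted NSC libraries, a comparison that shares the NR libraries with the one above. All 14 naive genes passed as higher in NR than in NSC, 13 of them at over 4-fold, where 7.34% of all genes were called higher at over 4-fold and 30.0% passed as higher at any fold. Of the 16 core and primed genes, 14 passed, 13 of them at over 4-fold. *Zfp42* was higher in NR than in NSC by 4.49 on the log2 scale, *Dppa5a* by 4.37 and *Dnmt3b* by 2.61. The summed naive level was 1953, 1133 and 1466 CPM in NR, 141, 68.4 and 130 CPM in NSC and 53.3, 59.7 and 66.4 CPM in NPC. Of that list, *Klf4* makes up much of the NPC sum.

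Germline genes rose with the pluripotency genes. The list holds 22 genes that somatic cells silence, among them meiotic genes and genes of the piRNA pathway, which represses transposons in germ cells. Of the 21 tested, 18 were called higher and 1 lower. Their median log2 fold change was 7.13, and 4.68 with genes at the floor set to their bounds, since 14 of the 22 were at the floor in NPC. Promoter sequence is shown for 4 of them, since their upstream sequences carry the motifs through which such genes are known to be repressed. The sequences are the 250 bases upstream of the annotated start in RefSeq on build GRCm38.p6, written 5′ to 3′ on the gene's strand. Capitals mark the E-box CACGTG and the E2F motif GCGGGAA, or its reverse complement TTCCCGC.
Ddx4 (chr13:112652311-112652560, minus strand): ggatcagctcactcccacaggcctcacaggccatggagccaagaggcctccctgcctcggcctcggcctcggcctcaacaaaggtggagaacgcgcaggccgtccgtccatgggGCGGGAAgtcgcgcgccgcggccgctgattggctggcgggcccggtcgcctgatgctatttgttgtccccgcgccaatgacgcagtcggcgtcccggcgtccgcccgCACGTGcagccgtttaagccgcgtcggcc
Hormad1 (chr3:95559427-95559676, plus strand): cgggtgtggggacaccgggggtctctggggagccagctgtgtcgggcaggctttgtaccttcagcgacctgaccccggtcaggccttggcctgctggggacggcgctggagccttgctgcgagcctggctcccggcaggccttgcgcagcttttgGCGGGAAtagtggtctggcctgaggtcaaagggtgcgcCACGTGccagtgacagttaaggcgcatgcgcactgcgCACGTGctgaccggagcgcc
Sycp3 (chr10:88459337-88459586, plus strand): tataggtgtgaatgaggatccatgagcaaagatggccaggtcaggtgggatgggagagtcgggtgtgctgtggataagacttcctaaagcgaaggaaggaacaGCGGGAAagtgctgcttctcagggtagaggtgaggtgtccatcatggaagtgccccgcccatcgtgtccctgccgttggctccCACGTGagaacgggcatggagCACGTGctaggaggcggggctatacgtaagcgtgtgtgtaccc
Stk31 (chr6:49395354-49395603, plus strand): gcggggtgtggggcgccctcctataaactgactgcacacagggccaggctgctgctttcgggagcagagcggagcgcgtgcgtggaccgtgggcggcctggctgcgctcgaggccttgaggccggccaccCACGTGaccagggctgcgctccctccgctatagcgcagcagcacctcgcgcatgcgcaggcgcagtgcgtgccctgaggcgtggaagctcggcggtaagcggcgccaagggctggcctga

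The first 3 sequences hold both motifs and the fourth an E-box alone. Searched on both strands, the E-box was in 14 of 24 promoters of the 20 germline genes that had one in the table (58.3%), against 6.02% of all 32851 promoters of this length and 8.02% of those of tested genes. Among the other lists the share with an E-box ran from 0% of the 13 neuroepithelial promoters to 40% of 5 oligodendrocyte promoters, and was 27.3% of 11 each for the dorsal and ventral and the developmental timing genes. The E2F motif was in 5 of the 24 germline promoters (20.8%), against 3.82% of all promoters, 6.53% of those of tested genes and 17.6% of those of the replication and mitosis genes. The median number of CG dinucleotides was 16.5 in the germline promoters and 6.0 in all promoters, but 15.0 in the promoters of tested genes. These matches describe the letters in the window and no binding was measured.

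**Figure D2:**
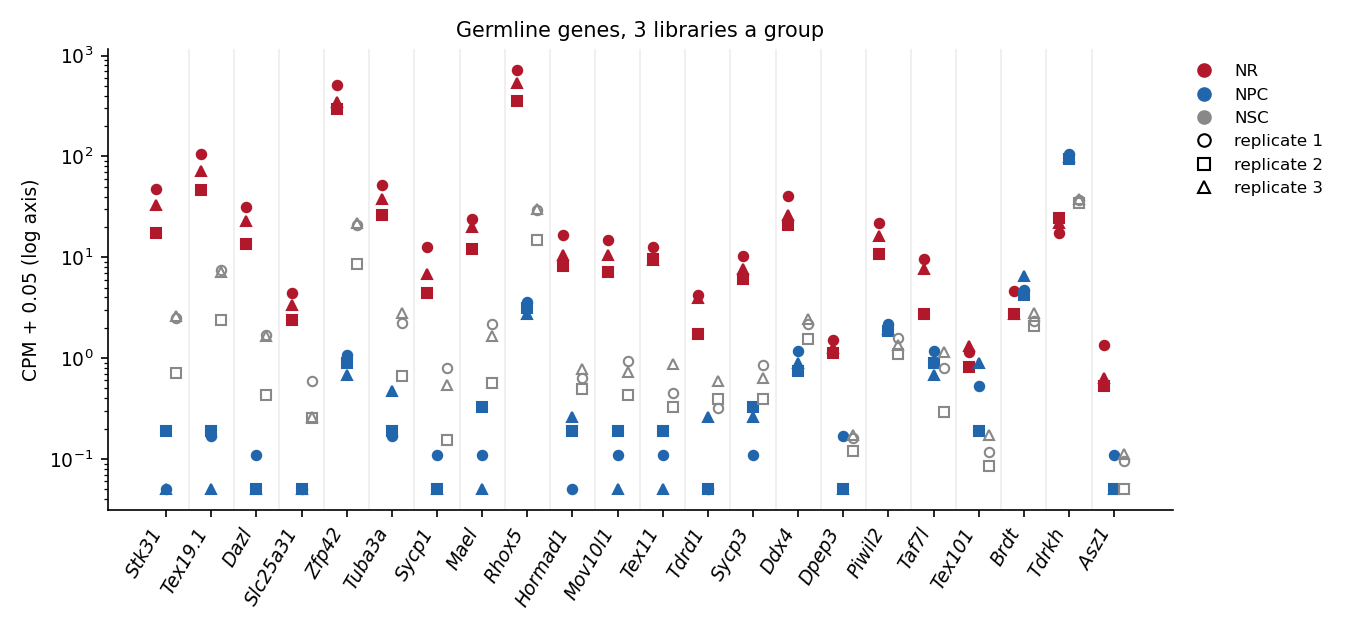
Level in CPM, on a log axis after adding 0.05, of the 22 germline genes in each library, with colour for the group and marker shape for the replicate (3 libraries a group). NR libraries lie above NPC and NSC for most genes with replicate 1 highest, while *Tdrkh* is lower in NR than in NPC.

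*Rhox5*, an X-linked homeobox gene of the testis and of early embryos, was at 715, 352 and 540.0 CPM in NR and 3.58, 3.07 and 2.71 CPM in NPC, 164-fold higher. *Tex19.1*, which restrains transposons, was at 105, 46.7 and 71.5 CPM against 0.119, 0.140 and 0 CPM, at least 183-fold higher. *Stk31*, for a testis kinase with a Tudor domain, was at 47.8, 17.4 and 32.8 CPM against 0, 0.140 and 0 CPM, at least 80.1-fold higher. No NR library overlapped NPC in these genes. *Dazl*, for an RNA-binding protein needed for germ cell development, was at 31.7, 13.5 and 22.6 CPM against 0.0597, 0 and 0 CPM, at least 55.4-fold higher. *Ddx4*, *Hormad1* and *Sycp3*, chosen for their promoters after values were seen, encode the germ cell helicase Vasa and 2 proteins of the meiotic chromosome axis. *Ddx4* was at 40.0, 21.0 and 26.2 CPM in NR and 1.13, 0.698 and 0.835 CPM in NPC (4.92 on the log2 scale). *Hormad1* was at 16.5, 8.07 and 10.5 CPM against 0, 0.140 and 0.209 CPM, at least 28.7-fold higher, and *Sycp3* at 10.3, 6.00 and 7.61 CPM against 0.0597, 0.279 and 0.209 CPM, at least 19.6-fold higher. All 18 members called higher were highest in NR replicate 1, and 17 were lowest in replicate 2, the same order as for the naive genes. *Tdrkh*, for a Tudor protein of mitochondria in the piRNA pathway, was the member called lower, at 17.4, 24.4 and 21.9 CPM against 105, 94.3 and 98.3 CPM (4.65-fold).

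Germline genes were higher in NR than in NSC as well, 19 of the 21 tested at over 4-fold. *Rhox5* differed by 4.44 on the log2 scale, *Dazl* by 4.18 and *Stk31* by 4.07. The summed level was 1658, 864 and 1201 CPM in NR, 120, 107 and 113 CPM in NPC and 114, 68.9 and 117 CPM in NSC. The NPC sum is mostly *Tdrkh*. The NR sum is mostly *Rhox5* and *Zfp42*, of which *Zfp42* is also in the naive list. The 8 genes of germ cell specification all passed as higher in NR than in NPC, 6 of them at over 4-fold. *Dppa3*, for the oocyte and primordial germ cell protein Stella, was at 144, 96.6 and 108 CPM against 0.179, 0.419 and 0.417 CPM, at least 285-fold higher, and *Tfap2c* at 98.0, 60.6 and 70.2 CPM against 0.239, 0.140 and 0.209 CPM (8.47). *Kit* (3.95), *Ifitm3* (1.85) and *Prdm1* (1.23) passed with smaller differences. Naive pluripotent cells express several of these genes too, and *Prdm14* and *Zfp42* are each in more than one of the lists.

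**Figure D3:**
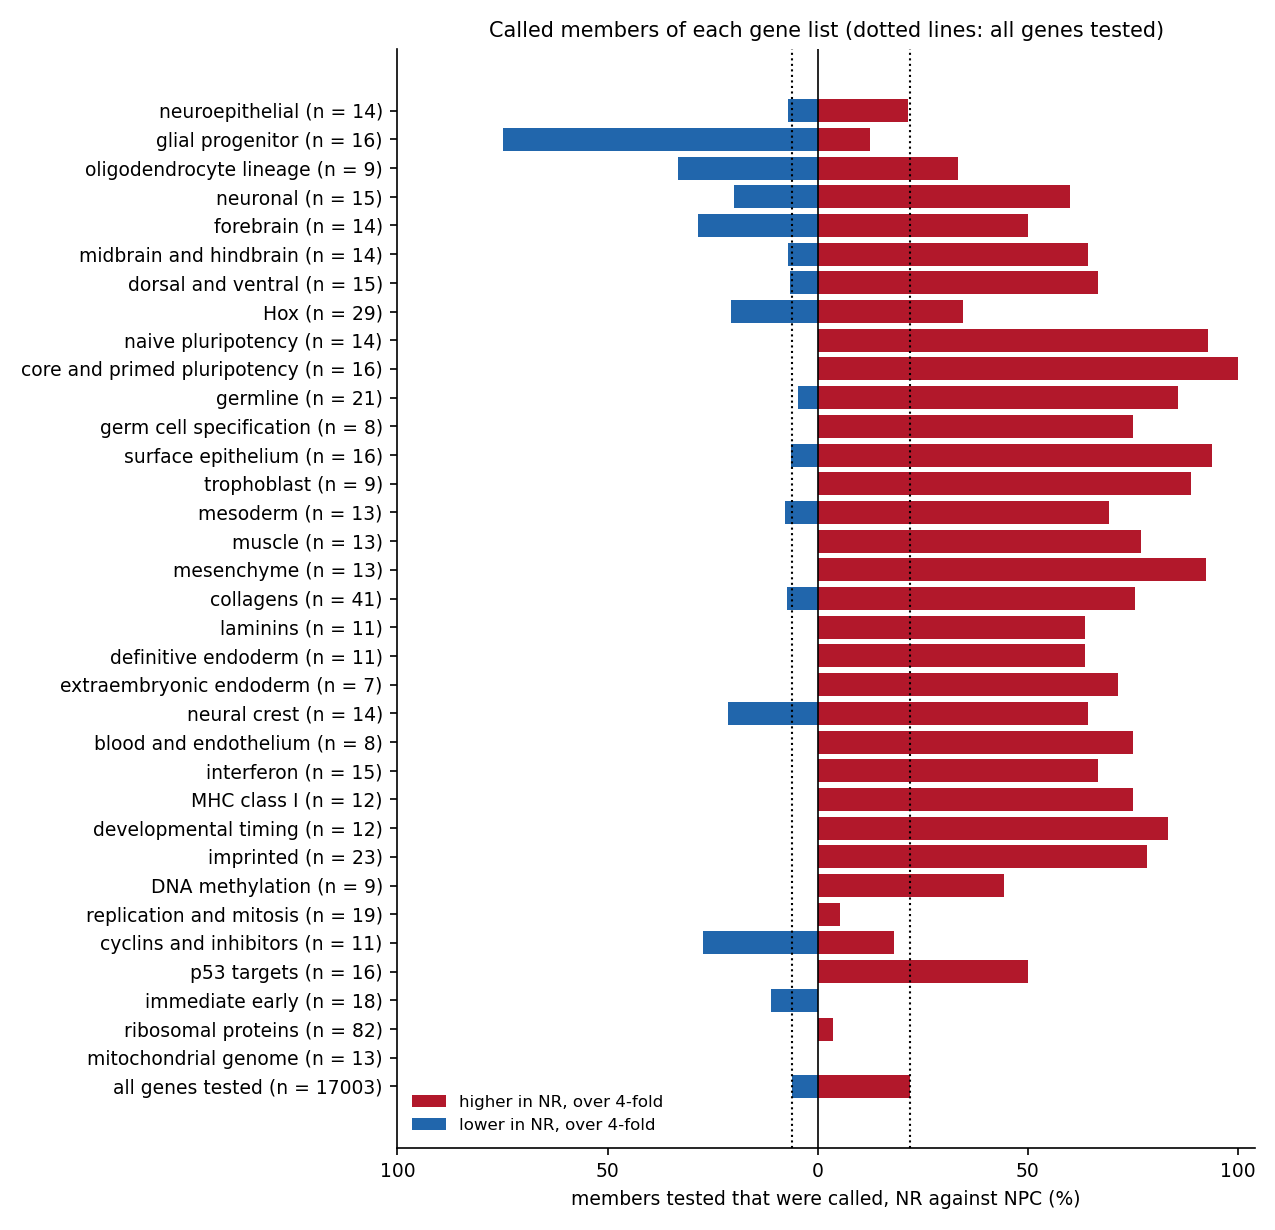
Percentage of the tested members of each of 34 gene lists that were called higher (red, to the right) or lower (blue, to the left) in NR than in NPC at over 4-fold, with dotted lines at 22.0% and 6.02% for all 17003 genes. The pluripotency, surface epithelium and mesenchyme lists reach the largest shares called higher, and the glial progenitor list the largest share called lower.

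Programs outside the nervous system were also higher in NR. Of 16 surface epithelium genes tested, 15 were called higher and 1 lower, with a median log2 fold change of 7.77. *Krt8* and *Krt18*, for the paired keratins of simple epithelia, were at 292, 539 and 233 CPM and 235, 357 and 181 CPM in the 3 NR libraries. In NPC they were at 1.61, 0.977 and 1.25 CPM and 0.835, 0.837 and 1.25 CPM, so that the folds were 257 and 281. *Cdh1*, for E-cadherin, was at 354, 203 and 219 CPM against 0.537, 1.12 and 0.209 CPM (407-fold). All 3 genes are also expressed by pluripotent cells or their early derivatives. The claudin genes *Cldn6* (at least 159.6-fold) and *Cldn4* (8.40) were called higher. The basal keratin genes of skin, *Krt5* and *Krt14*, named after their values were seen, were at 0.123, 0.129 and 0.112 and 0.308, 0.161 and 0.590 CPM in NR. The exception called lower was *Tfap2a*, likewise named after its value was seen, at 1.29, 0.774 and 1.24 CPM in NR against 4.18, 5.72 and 6.05 CPM in NPC. Of 9 trophoblast genes tested among 12, 8 were called higher, among them *Krt7* (at least 49.9-fold) and *Gata2* (4.21).

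Mesenchymal genes were higher in NR, with a wide spread between the NR libraries. Of 13 tested among 15, 12 were called higher, with a median log2 fold change of 6.996. *Col1a1*, for a chain of fibrillar collagen I, was at 2985, 413 and 2125 CPM in NR against 8.59, 8.79 and 7.51 CPM in NPC. Its partner *Col1a2* was at 1471, 136 and 978 CPM against 3.34, 2.37 and 3.13 CPM. *Col3a1*, for the collagen of loose connective tissue, was at 2728, 785 and 1701 CPM against 6.98, 10.3 and 7.10 CPM. In all 3 genes replicate 2 was the lowest NR library, yet above every NPC library. The folds were 219, 284 and 216, and that of *Col1a2* was 178 without NR replicate 1. The summed level of the list was 8506, 2004 and 5759 CPM in NR, 116, 134 and 128 CPM in NPC and 4467, 1295 and 4247 CPM in NSC. The Y-linked genes had the same order among the NR libraries and among the NSC libraries, and their part in this was not tested. The count called higher was 12 whichever NR library was left out.

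Muscle genes had another order among the libraries. Of 13 tested among 16, 10 were called higher, and 12 passed at any fold. *Acta2*, for smooth muscle actin, was at 275, 696 and 206 CPM in NR against 3.28, 2.79 and 1.46 CPM in NPC (141-fold). *Tagln*, for a smooth muscle protein, was at 67.3, 204 and 55.9 CPM against 1.19, 0.977 and 1.25 CPM (94.8-fold). *Actc1*, for cardiac actin, was at 11.1, 46.5 and 12.8 CPM against 0.239, 0.279 and 0.417 CPM (82.2-fold). Replicate 2 was highest in each of these, as it was for the summed level of 418, 1015 and 330 CPM in NR. Without NR replicate 2 the folds were 86.1 for *Acta2*, 53.5 for *Tagln* and 42.0 for *Actc1*. The summed level was 216, 1225 and 215 CPM in NSC, also highest in replicate 2. *Acta2* (log2 fold change 0.02), *Tagln* (0.006) and *Actc1* (-0.34) did not pass between NR and NSC. Of 13 tested, 7 passed as higher in NR than in NSC and 4 were called higher, where 30.0% and 7.34% of all genes did. The cardiac myosin genes *Myh6* (at least 26.8-fold) and *Myh7* (at least 29.5-fold, or 17.0-fold without NR replicate 2) were called higher. The skeletal muscle regulators *Myod1* and *Myog*, named after their values were seen, were at 0.0616, 0.0968 and 0.253 and 0.246, 0.677 and 0.506 CPM in NR.

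**Figure D4:**
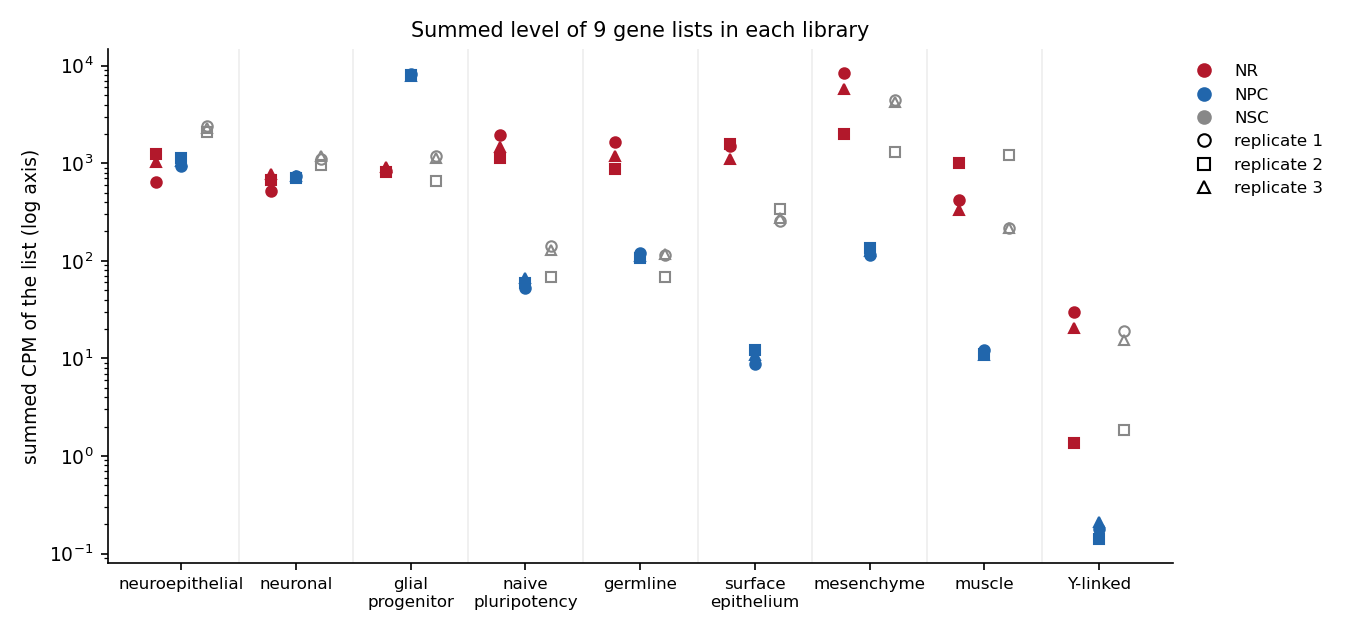
Summed CPM, on a log axis, of 9 gene lists in each of the 3 libraries of NR, NPC and NSC, with marker shape for the replicate. NR replicate 2 is the lowest NR library for mesenchyme, naive pluripotency, germline and Y-linked genes and the highest for muscle, and the NPC libraries lie close together in every list.

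Of 13 mesoderm genes tested among 18, 9 were called higher and 1 lower. *T*, for the primitive streak factor Brachyury, was at 27.6, 79.8 and 21.6 CPM in NR, highest in replicate 2, against 0.119, 0.140 and 0.209 CPM in NPC, at least 106-fold higher, or 60.4-fold without NR replicate 2. *Eomes*, a factor of the streak and of endoderm, was at 22.5, 9.74 and 16.1 CPM against 0, 0.140 and 0.209 CPM, at least 39.5-fold higher. *Mesp1*, for a factor of early cardiac mesoderm, had at most 3 counts in every NR library. The member called lower, named after its value was seen, was *Foxf1* (-3.74). Of 11 definitive endoderm genes tested among 12, 7 were called higher and 10 passed, among them *Sox17* (at least 31.9-fold), *Cer1* (at least 28.5-fold), *Foxa2* (2.88) and *Foxa1* (1.98). *Foxa2* and *Foxa1* also mark the floor plate of the neural tube. Of 16 extraembryonic endoderm genes only 7 were tested, of which 5 were called higher. They were *Dab2* (5.001) and 4 genes at the floor in NPC: *Amn* (at least 8.30-fold), *Alb* (at least 3.89-fold), *Apom* (at least 3.45-fold) and *Apob* (at least 2.38-fold). The bounds of *Alb*, *Apom* and *Apob* lay under the 4-fold threshold, and the number called higher ran from 0 to 9 across the alternatives run. List members outside the test stayed near 0, and *Apoa4*, *Fga* and *Fgb* had at most 3 counts in every NR library.

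Of 14 neural crest genes tested among 15, 9 were called higher and 3 lower, where 22.0% and 6.02% of all genes were. *Foxd3*, a crest factor that pluripotent cells also express, was at least 38.0-fold higher, *Snai2*, a factor of cells leaving the epithelium, at least 44.7-fold and *Msx2* at least 12.3-fold. *Ets1* was at 22.6, 56.3 and 24.2 CPM in NR against 295, 325 and 314 CPM in NPC and was called lower (-3.17), as were *Sox8* and *Tfap2a*. *Twist1* passed with a log2 fold change of 0.63. Of 15 blood and endothelial genes 8 were tested and 6 called higher. *Pecam1*, an endothelial adhesion gene that ESCs also express, was at 122, 65.8 and 86.1 CPM against 1.01, 0.558 and 0 CPM (6.999, or 8.05 without NPC replicate 1). *Cdh5*, for the endothelial cadherin, was at the floor in NPC and called higher (at least 2.88-fold), at 1.54, 0.807 and 1.18 CPM in NR. *Tek*, for an endothelial receptor, was at 7.27, 5.58 and 6.13 CPM against 0.418, 0.279 and 0.417 CPM (4.03). The embryonic globin genes *Hbb-bh1*, *Hbb-y* and *Hba-x* had at most 3 counts in every NR library.

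Of all 41 collagens tested among 44, which include 4 of the mesenchyme list, 31 were called higher and 3, *Col4a4*, *Col20a1* and *Col28a1*, lower. Outside the mesenchyme list, 27 of 37 tested were called higher, with a summed level of 2716, 2343 and 2202 CPM in NR and 103, 119.8 and 132 CPM in NPC, so that the 3 NR libraries lay closer together than for the mesenchymal genes. *Col8a1* was at least 125-fold higher, with 78.5, 18.0 and 55.9 CPM in NR. *Col22a1*, a collagen of tissue junctions, was at least 41.6-fold higher, with 10.3, 30.8 and 9.81 CPM, and was highest in replicate 2, without which the bound was 24.7-fold. Of the 11 laminin genes, 7 were called higher. *Lama3*, for an epithelial laminin chain, was at least 31.5-fold higher, *Lamb1* passed with a log2 fold change of 1.25, and *Lama5* passed as lower (-1.39).

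Genes of developmental timing were higher in NR, 10 of 12 at over 4-fold and all 12 at any fold, with a median log2 fold change of 4.53. *Lin28a* and *Lin28b* encode RNA-binding proteins that block maturation of let-7 microRNAs and fall as embryos mature. *Lin28a* was at 79.9, 80.2 and 86.1 CPM in NR against 0.537, 0.558 and 0.417 CPM in NPC (156-fold), and the 3 NR values were close together. *Lin28b* was at 32.6, 74.5 and 49.1 CPM against 0.537, 0.419 and 0 CPM (125-fold, or 201-fold without NPC replicate 1), highest in replicate 2. Their fetal partners *Igf2bp1* (108-fold) and *Igf2bp2* (16.0-fold) were called higher, and *Igf2bp3* passed with a log2 fold change of 0.82. Unlike the naive genes, *Lin28a* did not pass between NR and NSC (log2 fold change 0.32, adjusted p = 0.29), though it did with the replicate number as a block (0.44) and without NSC replicate 2 (0.80), and *Lin28b* was lower in NR (-1.08).

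Of the 23 imprinted genes, which are expressed from the copy of one parent, 18 were called higher in NR, with a median log2 fold change of 4.33. *H19*, the noncoding RNA next to *Igf2*, was at 90.8, 55.5 and 92.1 CPM in NR against 0.477, 0.419 and 0.417 CPM in NPC (173-fold). *Peg3* was at 538, 872 and 521 CPM against 52.3, 57.9 and 53.4 CPM (11.8-fold). *Mest* was at 562, 1408 and 769 CPM against 149, 138 and 145 CPM (6.33-fold). Each was separated from NPC in every library. *Grb10*, a growth suppressor gene, was at least 276-fold higher, and the noncoding RNA *Mirg* at least 16.4-fold. Of 9 DNA methylation genes, 4 were called higher, where 22.0% of all genes were. *Dnmt3l*, for the cofactor of de novo methylation, was at 124, 62.2 and 91.2 CPM against 0.179, 0.279 and 0.417 CPM, at least 227-fold higher, and *Tet1* was higher by 2.56 on the log2 scale. The others called were *Dnmt3b* and *Uhrf1*, for the partner of maintenance methylation. The maintenance enzyme gene *Dnmt1* (0.92) and *Dnmt3a* (1.72) passed with smaller differences.

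Antigen presentation and interferon genes were mostly higher. Of 12 MHC class I genes, 9 were called higher. *H2-K1*, a classical class I gene, was at 49.1, 41.4 and 45.4 CPM in NR against 0.835, 0.837 and 0.835 CPM in NPC (53.7-fold), whereas *B2m*, for the shared light chain, was lower at 94.8, 49.3 and 81.7 CPM against 148, 127 and 128 CPM (-0.84). Of 15 interferon response genes tested among 17, 10 were called higher and 14 passed. *Oas1a* (at least 28.9-fold), *Bst2* (at least 73.9-fold) and *Oasl2* (at least 23.7-fold) were at the floor in NPC. Among the called members 9 were highest in NR replicate 1 and 9 lowest in replicate 2.

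Cell cycle genes differed less. Of 19 replication and mitosis genes, 1 was called higher, and 16 passed as higher at any fold, with a median log2 fold change of 0.85. That one was *Ccnb2*, a mitotic cyclin gene, at 212, 176 and 188 CPM in NR against 27.1, 22.5 and 22.7 CPM in NPC (7.87-fold). *Mcm7* (0.95) and *Mcm2* (0.68), of the replicative helicase, passed with smaller differences. Of 11 cyclins and inhibitors of the G1 phase, 2 were called higher and 3 lower, where 22.0% and 6.02% of all genes were. The S phase cyclin gene *Ccne1* (3.36) and the imprinted inhibitor gene *Cdkn1c* were called higher, and the D-type cyclins moved in opposite directions, *Ccnd2* at 215, 299 and 270.2 CPM against 937, 913 and 918 CPM (-1.82) and *Ccnd3* at 283, 255 and 256 CPM against 68.2, 69.3 and 69.9 CPM (1.94). The inhibitor genes *Cdkn2a* (-2.996), *Cdkn2c* (-3.403) and *Cdkn1b* were called lower.

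Of 16 targets of p53, the transcription factor of the DNA damage response, 8 were called higher, where 22.0% of all genes were. *Ccng1* was at 511, 864 and 543 CPM in NR against 20.2, 19.5 and 16.7 CPM in NPC (33.5-fold), *Phlda3* at 163, 185 and 159 CPM against 2.63, 3.49 and 1.88 CPM (61.9-fold) and *Pmaip1* at 147, 129.6 and 115 CPM against 3.04, 2.93 and 3.55 CPM (41.8-fold). None of the 3 overlapped between groups. *Cdkn1a*, for the p21 inhibitor, passed as lower instead (-0.65), as did *Plk2* (-0.90). The 18 immediate early genes, which respond within minutes to handling and growth factors, had a median log2 fold change of 0.08, with 2 called lower, *Ier3* (-2.64) and *Atf3* (-2.08). Their summed level was 1452, 1495 and 1388 CPM in NR and 1403, 1438 and 1484 CPM in NPC, which overlapped.

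Of 82 ribosomal protein genes, 12 passed as higher and 48 as lower, with a median log2 fold change of -0.32. With DESeq2 size factors 18 passed as higher and 46 as lower. The 3 called higher were copies outside the usual set, *Rpl10l* at 50.7, 21.0 and 34.2 CPM in NR and 0.119, 0 and 0 CPM in NPC (at least 86.5-fold), *Rpl39l* (at least 28.6-fold) and *Rpl3l*, with under 1 CPM. *Rpl10l* and *Rpl39l* are known as testis paralogs, and reads of near-identical copies may be split uncertainly by the counting. Of 13 mitochondrially encoded genes tested, 12 passed as lower. *mt-Co1*, for a subunit of the respiratory chain, was at 906, 795 and 739 CPM in NR against 2460.0, 2243 and 2352 CPM in NPC (-1.53). The summed level of the list was 5298, 5338 and 5387 CPM in NR and 14180, 12093 and 13080 CPM in NPC.

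The largest rises by the fitted value, among called genes with a mean of at least 10 CPM in NR, had no count in any NPC library. They included *Rbm47*, for an RNA-binding protein of endoderm, at 39.2, 17.6 and 33.7 CPM in NR (at least 73.9-fold). *Zscan4c*, a marker of a transient state of ESCs that resembles the embryo at its first cleavages, was at 35.3, 29.2 and 24.7 CPM (at least 72.9-fold). *D1Pas1*, a testis helicase gene, was at 38.9, 13.4 and 22.0 CPM (at least 60.8-fold). *Ano9* (at least 48.6-fold), *Wfdc2* (at least 41.8-fold) and the lymphatic growth factor gene *Vegfc* (at least 39.6-fold) were also among the 10 largest. The largest falls were led by *Olig1* and *Bcan*. *Mlc1*, for a membrane protein of astrocytes, was at 0.677, 1.06 and 1.40 CPM in NR against 302, 277 and 267 CPM in NPC (251-fold lower). Its partner gene *Hepacam* was at 0.185, 0.0968 and 0.253 CPM against 21.9, 34.7 and 30.1 CPM (154-fold lower). *Ptgds*, for a prostaglandin synthase of glia and meninges, was 177-fold lower, the glutamate receptor gene *Grm5* 150.2-fold and *Cox6a2*, a subunit gene of cytochrome oxidase, 320.1-fold. The rises thus included germline and early embryonic genes and the falls astrocyte genes, as in the lists above.

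Differences were also spread unevenly over chromosomes. Among genes whose mean exceeded 3 log2 CPM, the median log2 fold change of each chromosome was taken relative to that of all such genes. The 418 genes of chromosome 15 were lower in NR (-0.68), with -0.71, -0.71 and -0.66 in the 3 NR libraries, and 63.6% of them passed as lower, against 41.7% of all 10408 genes above that level and at most 55.6% on any other chromosome. The 347 genes of chromosome 14 were higher by 0.55, the 597 of chromosome 8 by 0.47 and the 351 of chromosome 19 by 0.38, while the 608 of chromosome 1 were lower (-0.34). The 3 NR libraries agreed closely in each. *Sox1* lies on chromosome 8, so that its rise is measured on a chromosome whose median was shifted the same way. Against NSC, chromosome shifts of NR were between -0.07 and 0.13. The X chromosome was higher by 0.21, with 0.29, 0.14 and 0.23 in the NR libraries, beside the lower *Xist* in NR.

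**Figure D5:**
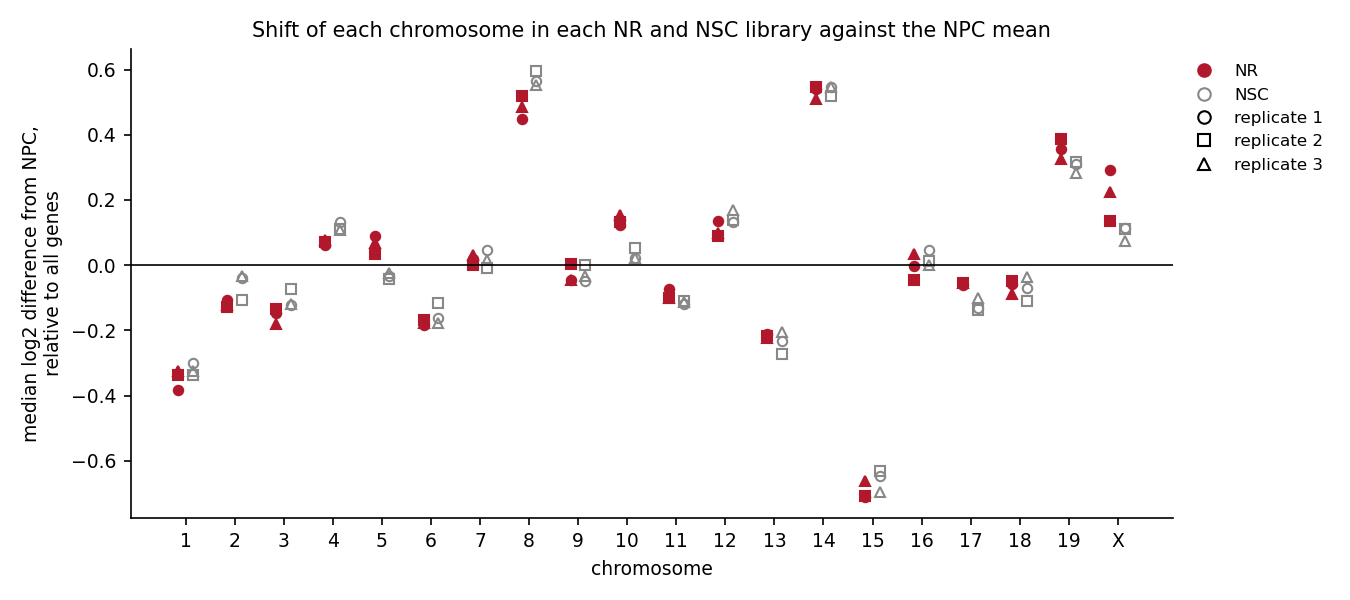
Median log2 difference of the genes of each chromosome from the NPC mean, relative to the median of all genes, in each NR (filled red) and NSC (open grey) library, for genes with a mean above 3 log2 CPM. Chromosomes 14, 8 and 19 lie above 0 and chromosomes 15 and 1 below it in all 6 libraries, and the X chromosome varies most between NR libraries.

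Set against the unsorted NSC libraries, with which NR correlated at r = 0.901 to 0.952, 1248 genes were called higher in NR at over 4-fold and 20 lower (7.34% and 0.118%). The number lower was 75 without NR replicate 2, 110 without NR replicate 3 and 50 without NSC replicate 2. At any fold the directions were nearly even, with 5108 genes (30.0%) passing as higher and 4523 (26.6%) as lower. Of the genes called higher over NPC, 1116 were also called higher over NSC, and both comparisons share the NR libraries. Neural lists lay on the lower side. Of 14 neuroepithelial markers 12 passed as lower in NR than in NSC and only *Ocln* as higher, with a median log2 fold change of -1.38. The log2 fold change was -1.51 for *Nes*, -1.74 for *Pax6* and -1.15 for *Prom1*. Of 15 neuronal genes 12 passed as lower, among them *Tubb3* (-0.88) and *Dcx* (-1.35), and of 29 Hox genes 17 passed as lower and 2 as higher. Of the 13 mesenchymal genes, 2 passed as higher, *Col1a1* and *Prrx1*, both short of 4-fold and named after their values were seen. Of 82 ribosomal protein genes 80 passed as higher in NR than in NSC. Among non-neural genes, *T* (4.25), *Cdh1* (2.17) and *Krt8* (2.12) were called higher in NR than in NSC, and *T* was at 3.44 without NR replicate 2. Pluripotency and germline RNA thus ran higher, and neuroepithelial RNA lower, in the libraries labelled as sorted than in those labelled as unsorted.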

How the data were processed

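RNA was isolated with the PicoPure kit, amplified with SMART-Seq v4 and made into libraries with the MicroPlex kit. The authors deposited a table of whole-number read counts per gene for 12 libraries, here used as raw counts per the file's values. The submitters' processing notes name STAR 2.6, RSEM 1.1.14 and build mm10, without saying which tool wrote the table. Of 45706 genes, 563 had no symbol (0.124% of counts) and no column of per-sample values was left out. Counts carry no molecular identifiers, so floors cover counting error only.

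Genes were filtered with filterByExpr and fitted in edgeR 4.0.16 (R 4.3.3) with TMM scaling and 1 coefficient for each of the 4 groups, by quasi-likelihood over all 12 libraries. A gene was called at a Benjamini-Hochberg adjusted p below 0.1, p below 0.05 and a fold over 4, thresholds that follow the study's text. CPM were computed here from these counts and each library's total over the genes tested, multiplied by its TMM factor. SE is the standard error of the log2 fold change. The procedure was tested on simulated counts of 16318 genes, in which it called all of 200 genes changed by 3 on the log2 scale (100% of rises and of falls) with 0 false calls. The changed genes were drawn above a minimum mean level, and every gene had the same simulated spread in all groups. The simulation thus cannot speak for genes at the floor in NPC or for the unequal spread of the real groups.

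The 29 gene lists and 5 lists by symbol pattern (Hox, collagen, laminin, ribosomal protein, mitochondrial) were chosen with earlier results of these data known, and the Y-linked list and *Xist* were added after values were seen. Genes were named by rule as the 10 largest non-overlapping rises and falls with at least 10 CPM, all neuroepithelial markers, of other lists the 3 highest and the 3 called with the largest change, genes the study names, and members at most at 3 counts in NR. Members named to complete a count of 5 or fewer were chosen after their values were seen, and some genes of the rule are not reported here.

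Same-numbered NR and NSC libraries deviated together from their group means (r = 0.229, 0.49 and 0.296 across genes), so the numbers were taken to pair them. A replicate block gave 1249 genes higher and 19 lower in NR than in NSC. Promoters came from RefSeq on GRCm38.p6 by symbol, as the 250 bases before the start. Alternatives were DESeq2 1.42.0 and its size factors, upper-quartile scaling, other filters, thresholds, prior counts and depths, fits of the compared groups alone, the block, and leaving out each library.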

Additional observations from a re-analysis of the deposited data

How the results depend on the processing

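A filter of 10 or more counts in each library compared leaves out genes near 0 in NPC. It gave 570 genes called higher and 534 lower than NPC, 4549 higher at any fold, 95 list members called against 320, and 565 higher and 5 lower than NSC. A fold over 2 gave 2934 genes lower than NPC, and 2362 higher and 936 lower than NSC. A test against a fold of 4 itself (glmTreat) gave 727 higher and 1 lower than NSC, and *Sox1* no longer passed at its log2 fold change of 1.48. With no filter on low counts, 2306 were higher and 112 lower than NSC, and with a prior count of 2, 8 were lower than NSC.

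Leaving out 1 library gave 3742 to 4077 genes higher and 1053 to 1158 lower than NPC, and at any fold 7441 to 8015 and 5578 to 6072. It gave 1168 to 1474 genes higher and 16 to 110 lower than NSC, the latter 75 without NR replicate 2, 110 without NR replicate 3 and 50 without NSC replicate 2. *Sox1* ranged from 1.22 to 1.84 and list members called from 316 to 333. The sign of *Klf4* against NPC turned without NR replicate 1 (-0.22), NR replicate 3 (-0.04) and NPC replicate 1 (-0.06), and was 0.40 without NR replicate 2. That of *Areg*, which had few counts, turned without NPC replicate 1 (4.18) and with libraries thinned to the smallest total (4.39), and was -1.69 without NPC replicate 2. Chromosome 15 moved from -0.68 to -0.73 with genes above 5 log2 CPM.

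The numbers did not pair NR with NPC (r = 0.0475, 0.0138 and 0.024). The replicate block gave 3746 genes higher and 1049 lower than NPC, 7760 and 5824 at any fold, *Sox1* at 1.31 and 320 list members called. Of the 212 gene results given in the text, 156 kept their direction and side of the adjusted p threshold in every alternative that tested the gene. A gene that a filter left out was not counted as changed, and the 4-fold threshold entered this count only through glmTreat. Among the libraries compared NPC replicates 2 and 3 were the shallowest, so folds of genes near 0 in NPC are given as bounds.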
